A study of Mus musculus with 19 samples.

Results

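The genes described here are 40 imprinted genes of the mouse that lie outside the Dlk1-Dio3 cluster. They were chosen by symbol, and an entry of the gene tables was taken where its name, alone or joined to that of an overlapping gene, was on the list. All 40 symbols were found, in 40 of 22756 entries. Kcnq1 and Kcnq1ot1 share 1 entry, Gnas has 2 (Gnas, and Gnas joined to its antisense transcript Nespas), and 8 entries carry joined names, such as H19 with Mir675, Igf2 with Igf2as, Peg3 with Peg3as and Snrpn with Snurf. By the parental copy that is known to be read, 21 entries are paternally and 16 maternally expressed, and 3 are mixed (both Gnas entries and Kcnq1/Kcnq1ot1). No measured value entered the choice of genes.

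The study followed mouse embryonic stem (ES) cells of the reporter line Rex1 GFPd2, in which a destabilised green fluorescent protein (GFP) marks the naive state, through loss and regain of that state. RNA was sequenced in 19 libraries of 9 groups, all of this 1 line. Undifferentiated cells labelled as kept in Lif+2i (the cytokine LIF with inhibitors of MEK and GSK3) gave 1 library. Cells after 2 days in serum-containing differentiation medium gave 1 library, and day-2 cells sorted for the absence of both GFP and SSEA1 (a surface marker of the undifferentiated state) gave another. The sorted cells were then kept in the same medium until day 15, either untreated (1 library) or with AICAR, a compound that cells convert into an activator of the energy-sensing kinase AMPK. The AICAR culture was sequenced unfractionated (1 library), as its GFP-negative fraction (1) and as its GFP-positive fraction (3). GFP-positive cells were also expanded in Lif+2i, as 8 lines from picked colonies (colony lines 1, 3, 4, 5, 6, 7, 9 and 10) and 2 lines from sorted cells (sorted lines). Groups follow the sample titles. The sorting field differs for the first day-2 library, which it gives as sorted, and for the AICAR fractions, which it gives as not sorted, and the unfractionated AICAR library carries a GFP-negative label.

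An imprinted gene is read mainly from the copy inherited from 1 parent, in most cases because DNA methylation laid down in the egg or the sperm marks a control region near it. Many imprinted genes act on growth: Igf2 is a growth factor, Igf2r clears it, and H19, Cdkn1c, Grb10 and Phlda2 restrain growth. Several of them are silent or low in ES cells and are switched on as embryonic and placental tissues form, and some (Ube3a, Gab1, Sfmbt2, Ddc) are imprinted only in certain tissues. Gene-level counts do not tell the parental copies apart, so the values below are total levels and say nothing of imprinting itself.

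Promoters are shown for 4 of the genes on which the results turn: Mest and Snrpn, which differed between colony lines, Plagl1, which rose most in the colony lines, and Peg3, a highly expressed gene at day 15. RefSeq promoter windows (GRCm38.p6, each of 300 bases) were found for 32 of the 40 genes. H19, Peg10, Sgce, Impact, Peg13, Cdkn1c, Kcnq1 and Trappc9 had no entry. The sequence TGCCGC, which the zinc-finger protein ZFP57 is known to bind when methylated, was searched on both strands, matches allowed to overlap. It was present in at least 1 window of 11 of the 32 genes (34.4%), against 13.1% of all 27025 genes. Counted by window, 22.6% of the 53 windows of these genes held it, against 11.6% of all 32851. The genes with a match were Calcr, Commd1, Grb10, Igf2, Mest, Nap1l5, Nnat, Osbpl5, Plagl1, Snrpn and Zim1. In capitals are the matches, here all on the opposite strand to the gene (GCGGCA in the gene's direction):
Mest, chr6:30737800-30738099, plus strand: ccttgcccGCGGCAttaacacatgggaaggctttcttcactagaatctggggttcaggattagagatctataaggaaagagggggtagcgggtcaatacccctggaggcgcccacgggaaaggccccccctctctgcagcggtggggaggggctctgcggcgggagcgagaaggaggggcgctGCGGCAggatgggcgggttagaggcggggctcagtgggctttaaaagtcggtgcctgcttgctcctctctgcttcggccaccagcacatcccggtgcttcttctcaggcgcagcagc
Snrpn, chr7:60005150-60005449, minus strand: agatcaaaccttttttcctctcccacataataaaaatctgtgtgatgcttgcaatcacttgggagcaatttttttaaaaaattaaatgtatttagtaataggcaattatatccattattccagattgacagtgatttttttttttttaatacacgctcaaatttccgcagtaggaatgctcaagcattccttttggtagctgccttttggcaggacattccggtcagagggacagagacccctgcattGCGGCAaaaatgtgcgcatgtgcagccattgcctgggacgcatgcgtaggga
Plagl1, chr10:13090582-13090881, plus strand: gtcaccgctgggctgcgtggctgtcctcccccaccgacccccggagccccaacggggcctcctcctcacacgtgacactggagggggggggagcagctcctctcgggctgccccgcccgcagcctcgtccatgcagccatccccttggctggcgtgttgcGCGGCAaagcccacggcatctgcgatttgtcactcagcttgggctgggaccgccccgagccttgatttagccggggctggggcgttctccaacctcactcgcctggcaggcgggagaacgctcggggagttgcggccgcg
Peg3, chr7:6730370-6730669, minus strand: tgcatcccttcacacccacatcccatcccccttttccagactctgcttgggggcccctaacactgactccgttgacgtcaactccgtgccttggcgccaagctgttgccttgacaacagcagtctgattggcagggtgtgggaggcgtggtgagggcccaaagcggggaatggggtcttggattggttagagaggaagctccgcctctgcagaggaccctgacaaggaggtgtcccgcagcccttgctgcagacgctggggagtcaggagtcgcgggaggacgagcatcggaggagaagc
Mest had 3 windows and Snrpn 4, of which one with the most matches is shown, while Plagl1 and Peg3 had 1 each. The window shown for Mest held 2 matches and 17 CpG dinucleotides, that for Snrpn 1 and 7, that for Plagl1 1 and 26, and that for Peg3 none and 13. The median CpG count of a gene's most CpG-rich window was 17 in the listed genes and 8 over all genes. TGCCGC itself holds a CpG, and the shares with a match were not compared at equal CpG count. Whether they differ beyond that was not tested. H19, the gene with the highest level of the list, is also the host of a microRNA, counted in the same entry. Its mature forms on chromosome 7, minus strand (seed, bases 2 to 8, in capitals), do not share a seed:
mmu-miR-675-3p, chr7:142577078-142577099: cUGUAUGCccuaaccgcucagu
mmu-miR-675-5p, chr7:142577112-142577133: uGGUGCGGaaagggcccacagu

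Levels are given as CPM, read counts scaled to each library's total in genes, after trimmed-mean (TMM) scaling over the 19 libraries. The libraries held 5771671 to 14233421 reads in genes, and by their headers they came from 2 sequencing projects. The second project holds the 2 deepest, replicates 1 and 2 of the AICAR GFP-positive cells, and the first the other 17. The summed level of 8 naive stem cell markers was 2110 CPM in undifferentiated cells, 2020 to 2210 in all 10 lines, 1380 to 1920 in AICAR GFP-positive cells and 217 at day 15 without AICAR, as the labels imply. AICAR GFP-positive replicate 3 stood apart from replicates 1 and 2. Its summed level of 10 extraembryonic endoderm markers was 1150 CPM, against 155 and 151, and that of 10 mesenchyme markers 211 against 21.4 and 30.8. All 10 markers of either list had reads in replicate 3. In replicate 1, Ttr of the endoderm list and Col3a1, Dcn, Lum and Postn of the mesenchyme list were at 0, and in replicate 2 Col3a1, Lum and Postn. Replicate 3 is also the only GFP-positive library of the first project, so its cells and its project cannot be told apart. Without it, the remaining GFP-positive libraries are all of the second project and every other group of the first, so that in each fit without it group and project cannot be told apart either. Results that rest on replicate 3 are given with and without it.

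Summed over the 40 entries, imprinted transcripts reached 1510 CPM in undifferentiated cells, 2140 and 2290 in the day-2 libraries and 21200 at day 15 without AICAR. They came to 4540 CPM in the whole AICAR culture, 3710 in its GFP-negative fraction, 1790, 1930 and 3400 in AICAR GFP-positive replicates 1, 2 and 3, and 1460 to 1890 in the 10 lines. Day 15 without AICAR was thus far above every other library, and the lines lay close to undifferentiated cells. H19 alone took 1.46% of all reads at day 15. Without H19 the sum was 8050 CPM at day 15, 1510 in undifferentiated cells and 1450 to 1840 in the lines. Per exon length, on the authors' RPKM scale, H19 (5820 RPKM) was the highest of the list at day 15, followed by Igf2 (1690), the Gnas entry (1250), Peg3 (775) and Mest (525). In the colony lines the order was another one: Impact (157 ± 15.7 RPKM, SD, n = 8) and Gab1 (122 ± 17.0) led, then Gnas (99.3 ± 14.8), Commd1 (85.5 ± 13.5), Mest (78.1 ± 20.4) and Snrpn (75.8 ± 29.5). The last 4 overlap within their SDs. The exon length behind the RPKM of a gene with several isoforms varied between libraries, from 558 to 4778 bases for Igf2, so its RPKM is coarse and its changes are given in CPM only.

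**Figure D1:**
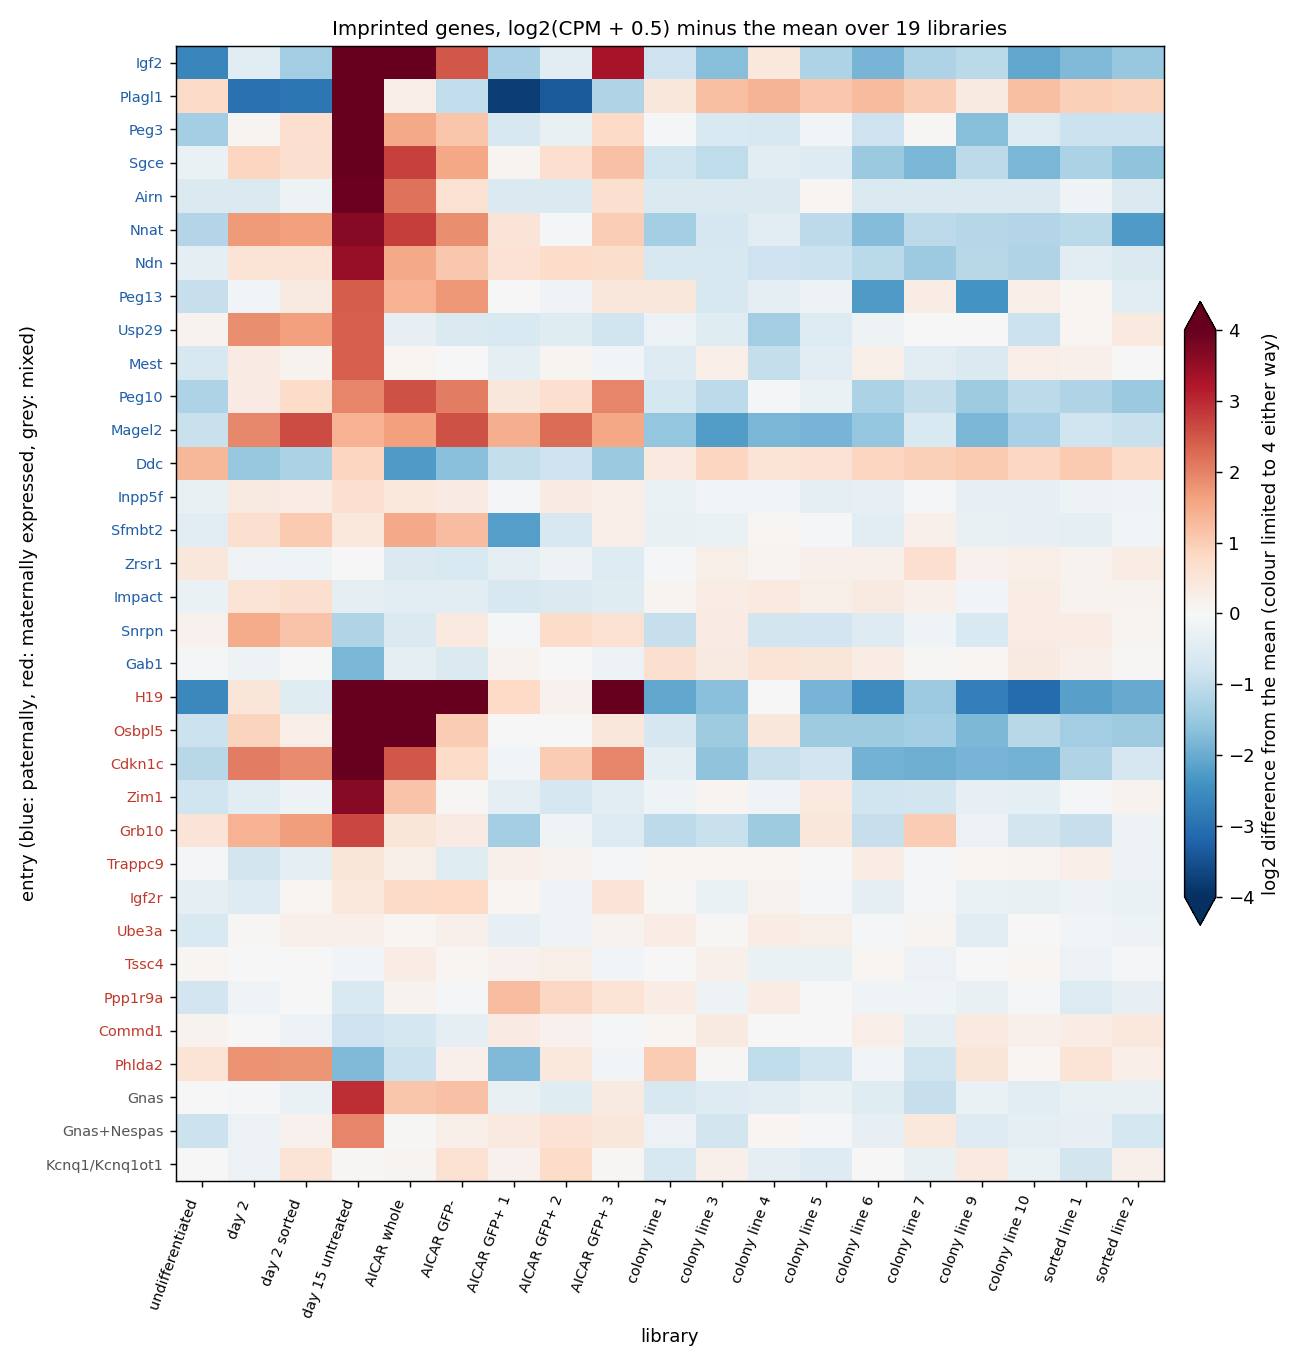
Heatmap of 34 imprinted entries with at least 5 CPM in some library (rows) over the 19 libraries (columns), as log2(CPM + 0.5) minus the row's mean, with colour limited to 4 either way. Most rows are darkest red at day 15 without AICAR, and the lines to the right resemble undifferentiated cells apart from single rows such as Peg13.

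The first step compared day-2 sorted cells with undifferentiated cells, 1 library each, so there is no test. Of 29 entries with at least 50 reads in either library, 13 differed by more than 2-fold, 11 higher and 2 lower at day 2. Over all genes 19.5% of 9677 entries did, 9.7% higher and 9.76% lower. The median log2 ratio was 0.89 for the listed genes and -0.04 over all. In bulk RNA, a change in the share of cells and a change in RNA per cell cannot be told apart, here and in all that follows.

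Among genes of growth control, Cdkn1c, an inhibitor of cyclin-dependent kinases, went from 1.67 CPM in undifferentiated cells to 18.6 and 16.9 in the day-2 and day-2 sorted libraries. H19 went from 6.83 to 61.5 and 30.8 CPM. Grb10, an adaptor that dampens insulin and IGF receptor signalling, went from 12.8 to 23.8 and 29.6 CPM, and Phlda2, which restrains placental growth, from 6.07 to 15.1 and 14.7. Both day-2 libraries were above the undifferentiated one for these 4 genes. In the paternally expressed set, Magel2, a ubiquitin ligase regulator of the Prader-Willi region, went from 0.759 to 8.31 and 13.6 CPM. Its fold in the sorted library was 17.7, from 5 and 93 reads. Nnat, a membrane proteolipid, went from 0.911 to 9.87 and 9.34 CPM. Peg10, a retrotransposon-derived gene needed in the placenta, went from 82.3 to 244 and 326, and Peg3, a zinc-finger gene, from 36.4 to 100 and 148.

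Plagl1 and Ddc went the other way. Plagl1, a zinc-finger transcription factor that arrests growth, was at 55.1 CPM in undifferentiated cells and at 3.63 and 3.94 CPM at day 2, 14.2-fold lower in the sorted library. Ddc, an enzyme of dopamine and serotonin synthesis next to Grb10, was at 27.3 CPM and then at 3.37 and 4.09, 6.77-fold lower. These were the 2 entries past 2-fold downwards. Snrpn, a splicing protein gene of the Prader-Willi region, was at 124 CPM and then at 308 and 241, and Impact, a regulator of translation, at 119 and then 211 and 222. Neither passed 2-fold in the sorted library.

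Between day 2 (sorted) and day 15 without AICAR, 22 of 34 entries compared differed by more than 2-fold, 17 higher and 5 lower at day 15, against 50.1% of all 11554 entries (28.2% higher, 21.8% lower). Of the paternally expressed entries 15 of 19 did, and of the maternally expressed 5 of 12. The median log2 ratio was 1.96 in the paternally expressed, 0.55 in the maternally expressed and 0.03 in all entries. The difference between the parental classes was not tested. H19 went from 30.8 to 13100 CPM and Igf2, its neighbour, from 1.02 to 1020, 405- and 949-fold. Plagl1 rebounded from 3.94 to 694 CPM. Peg3 went from 148 to 1870 CPM, Mest, an enzyme gene of mesodermal tissue, from 131 to 620, and the Gnas entry, which codes for the stimulatory G protein alpha subunit, from 172 to 1610. Osbpl5, a lipid transfer protein gene, went from 1.61 to 86.4 CPM, Zim1, a zinc-finger gene beside Peg3, from 0.73 to 17.2, and Sgce, a sarcoglycan, from 9.05 to 117. Airn, the noncoding RNA that runs antisense to Igf2r, was seen as 1 read at day 2 and 92 reads (10.8 CPM) at day 15. Since the use of strand in the counting is not given, reads of Airn and of Igf2r where they overlap are uncertain.

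The 5 that were lower at day 15 were Phlda2 (14.7 to 0.819 CPM), Snrpn (241 to 47.7), Gab1, an adaptor of receptor signalling (292 to 81.2), Magel2 (13.6 to 5.62) and Impact (222 to 110). Igf2r (190 and 245 CPM), Ube3a, a ubiquitin ligase (114 and 114), Tssc4 (29.8 and 27.4) and Zrsr1, a splicing factor (28.6 and 33.2), were nearly level. The untreated day-15 library also had 33800 CPM of the mesenchyme markers and 3310 CPM of 6 smooth muscle markers, against 48.5 and 56.0 in day-2 sorted cells. Every other cell type list summed higher there too. Keratinised epithelium markers were at 1250 against 1.31 CPM, extraembryonic endoderm markers at 478 against 19.1 and trophoblast markers at 125 against 15.9. The part of such cells in these values was not tested.

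In the whole AICAR culture, 19 of 32 entries compared lay past 2-fold from the untreated day-15 library, 17 of them lower, against 27.2% of all 11386 entries (9.97% higher, 17.2% lower). Mesenchyme markers summed to 7510 CPM there. H19 was at 1050 CPM, Igf2 at 156, Plagl1 at 39.4, Peg3 at 266, Mest at 127 and Grb10 at 12.5. The only 2 higher were Gab1 (225 against 81.2 CPM) and Sfmbt2, a Polycomb-related gene with an imprinted role in the placenta (52.1 against 24.2). Peg10 was not past 2-fold (1150 against 765 CPM), and the order of its levels over the series differs from that of H19, since its highest library was the whole AICAR culture. The GFP-negative fraction gave 20 of 33 past 2-fold, 17 lower and 3 higher, against 32.7% of all 11352 (11.3% higher, 21.4% lower). The 3 higher were Gab1 (191 CPM), Snrpn (145 against 47.7) and Magel2 (13.1 against 5.62).

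AICAR GFP-positive cells were compared with untreated day 15 by the edgeR quasi-likelihood test, with 3 libraries against 1, the lone library being assumed to vary like the 3. Of 40 entries tested, 23 passed an adjusted p of 0.05, 19 lower and 4 higher in GFP-positive cells. The share over all 14858 entries was 46.3% (23.2% lower, 23.1% higher). Without replicate 3 it was 28 of 40 (24 lower, 4 higher), against 63.3% (33% lower, 30.2% higher). Of the paternally expressed entries 14 of 21 passed (12 lower), and of the maternally expressed 7 of 16 (5 lower). The median log2 fold change was -2.34 in the former, -0.31 in the latter and -0.03 over all entries. Naive stem cell markers (217 CPM at day 15, 1380 to 1920 in GFP-positive cells) and mesenchyme markers (33800 against 21.4 to 211) differed as well. All 6 smooth muscle and all 4 keratinised epithelium markers were called lower in GFP-positive cells, as was 1 of 10 extraembryonic endoderm markers. The part of such cells was not tested.

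Plagl1 was at 694 CPM at day 15 and at 1.94, 2.67 and 13.9 CPM in GFP-positive replicates 1, 2 and 3, so that all 3 were far below. The log2 fold change was -6.85 (SE 1.00, edgeR adjusted p = 0.0077), and -8.19 (SE 0.19, adjusted p = 9.18e-09) without replicate 3. Osbpl5 was at 86.4 CPM at day 15 and at 1.27, 1.24 and 1.87 in GFP-positive cells. These 3 values had little spread (log2 -5.87, SE 0.28, adjusted p = 0.00165). Zim1 was at 17.2 CPM at day 15 and at 0.597, 0.391 and 0.551 in GFP-positive cells (log2 -5.02, SE 0.42, adjusted p = 0.00305). Its neighbours in the same domain, Peg3 and Usp29, were lower too. Peg3 was at 59.4, 76.7 and 159 CPM against 1870 (log2 -4.22, SE 0.52, adjusted p = 0.00545). Usp29, a deubiquitinase gene, was at 1.72, 1.89 and 1.43 against 17.3 (log2 -3.31, SE 0.37, adjusted p = 0.00457). Both cultures came from day-2 sorted cells. Those had 3.94 CPM of Plagl1, 1.61 of Osbpl5, 0.73 of Zim1, 148 of Peg3 and 9.92 of Usp29.

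Igf2 was at 1020 CPM at day 15 and at 1.12, 2.41 and 38.8 CPM in GFP-positive cells. H19 was at 13100 CPM at day 15 and at 75.1, 48.5 and 801 in GFP-positive cells. The day-2 sorted cells behind both cultures had 1.02 CPM of Igf2 and 30.8 of H19. Replicate 3 stood far above the other 2 for both genes, while none came near day 15. The log2 fold changes were -6.20 (SE 1.68, edgeR adjusted p = 0.0363) for Igf2 and -5.39 (SE 1.51, adjusted p = 0.0394) for H19. Without replicate 3 they were -9.12 (SE 0.25) and -7.72 (SE 0.22), with adjusted p of 1.69e-08 and 2.09e-08. Leaving out replicate 2 ended both calls (adjusted p = 0.0944 for Igf2 and 0.0785 for H19), and leaving out replicate 1 ended that of H19 (0.0584). Airn, at 10.8 CPM on day 15 and at 0, 0 and 0.661 CPM in GFP-positive cells, passed with adjusted p = 0.0299, but not by DESeq2 (0.371) or without replicate 2 (0.0835).

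Sgce, Grb10, Nnat and Cdkn1c were between 8.16- and 12.1-fold lower than at untreated day 15. Sgce was at 6.04, 9.26 and 13.1 CPM, Grb10 at 3.13, 7.89 and 5.95, Nnat at 4.03, 2.54 and 5.73, and Cdkn1c at 3.80, 8.94 and 17.6 in replicates 1, 2 and 3. Their edgeR adjusted p were 0.00424, 0.00746, 0.00628 and 0.0243, and the call of Cdkn1c was lost without replicate 2 (adjusted p = 0.0839). Without replicate 3 the log2 fold change of Cdkn1c was -3.68 (SE 0.35), against -3.03 (SE 0.70) with it. The other 7 lower entries were both Gnas entries, Ndn, Nap1l5, Mest, Peg13 and Ddc, by 2.81- to 8.04-fold.

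The 4 higher in GFP-positive cells were Gab1, Snrpn, Ppp1r9a and Commd1. Gab1 was at 317, 282 and 244 CPM against 81.2 (log2 1.83, SE 0.22, edgeR adjusted p = 0.00538). Snrpn was at 105, 182 and 167 CPM against 47.7 (log2 1.71, SE 0.39, adjusted p = 0.0233). Ppp1r9a, a neuronal actin-binding protein gene of the Peg10 domain, was at 53.3, 39.9 and 32.9 CPM against 14.4 (log2 1.58, SE 0.34, adjusted p = 0.0203), and Commd1, a copper and protein trafficking factor whose intron holds Zrsr1, at 60.6, 53.4 and 45.8 against 26.6 (log2 1.04, SE 0.23, adjusted p = 0.0211). Peg10 did not pass, at 268, 313 and 768 CPM against 765. Without replicate 3 it was called lower (log2 -1.37, edgeR adjusted p = 2.39e-05).

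**Figure D2:**
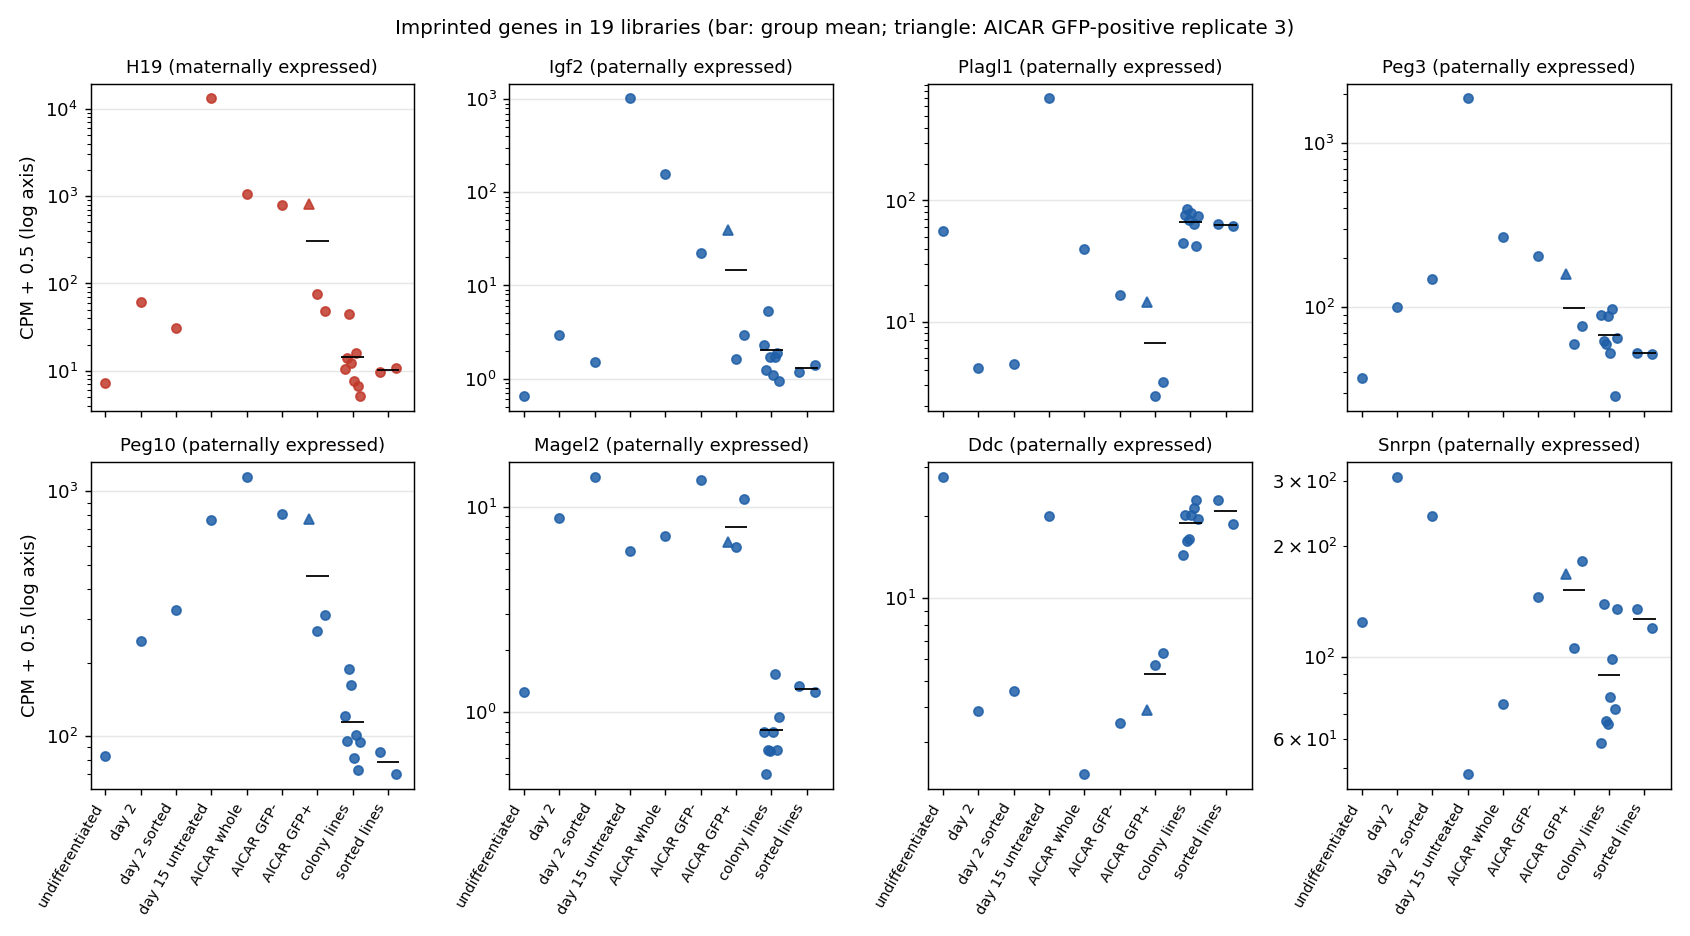
Level of 8 imprinted genes as CPM + 0.5 on a log axis, 1 point a library in 9 groups, with the mean as a bar where a group has several libraries and AICAR GFP-positive replicate 3 as a triangle. H19, Igf2, Plagl1 and Peg3 peak at day 15 without AICAR, Plagl1 and Ddc are lower in AICAR GFP-positive cells than in all lines, and Peg10 and Magel2 are higher there than in all lines.

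Within the AICAR culture, GFP-positive cells were compared with the GFP-negative library (3 against 1). None of 38 entries tested was called by edgeR, and 0% of all 13821 were. At an unadjusted p of 0.05 there were 6, and DESeq2 called 2 of 40, against 1204 of all 18516. Without replicate 3, edgeR called 16 of 39, 13 lower and 3 higher in GFP-positive cells, against 28.6% of all entries (16% lower, 12.6% higher), so that this comparison turned on that library. In the fit without it, H19 (75.1 and 48.5 against 797 CPM; log2 -3.74, SE 0.21, adjusted p = 2.2e-06), Igf2 (1.12 and 2.41 against 22 CPM; log2 -3.66, SE 0.41, adjusted p = 0.000172), Plagl1 (1.94 and 2.67 against 16.1) and Sfmbt2 (3.43 and 11.2 against 42.4) were lower. Gab1, Commd1 and Ppp1r9a were higher. Replicate 3 itself had 801 CPM of H19, 38.8 of Igf2 and 13.9 of Plagl1, at or near the levels of the GFP-negative library. Extraembryonic endoderm markers were at 1150 CPM in replicate 3 and 1090 in the GFP-negative library, and mesenchyme markers at 211 and 782. The like endoderm sums hide opposite differences. Cubn (619 against 160 CPM), Amn, Apoa1, Dab2, Afp and Ttr were higher in replicate 3. Gata4 (65.4 against 286), Gata6 (69.7 against 241), Sox17 and Foxa2 were lower there. The part of such cells was not tested.

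GFP-positive cells were also set against undifferentiated cells (3 against 1). Of 37 entries tested, 1 was called, against 4.94% of all 13640 (2.38% higher, 2.56% lower), and 10 had an unadjusted p under 0.05. The entry called was Ddc, at 5.22, 5.81 and 3.42 CPM against 27.3 (log2 -2.52, SE 0.34, edgeR adjusted p = 0.0416). This call was lost without replicate 1 (adjusted p = 0.0941) or replicate 2 (0.173). DESeq2 called 5 of 40, against 2107 of all 18251. Without replicate 3, 13 of 36 were called, 9 higher and 4 lower, against 30.8% of all entries (15.1% higher, 15.7% lower). The 4 lower were Plagl1 (1.94 and 2.67 against 55.1 CPM; log2 -4.60, SE 0.25, adjusted p = 3.97e-06), Ddc, Zrsr1 (24.9 and 28.4 against 44.5) and the Gnas entry (168 and 148 against 212). The 9 higher were H19 (log2 3.14, SE 0.33, adjusted p = 0.000134), Magel2, Calcr, Peg10, Cdkn1c, Ppp1r9a, Ndn, Peg3 and the Gnas entry joined to Nespas. In the fit with all 3 replicates, the median log2 fold change of the markers tested was 6.19 for 10 of extraembryonic endoderm, 4.87 for 4 of trophoblast and 1.60 for 8 of mesenchyme, with none called. Summed trophoblast markers were at 16.9, 25.9 and 44.8 CPM in replicates 1, 2 and 3, against 21.7 in undifferentiated cells. Mesenchyme markers were at 21.4, 30.8 and 211 against 19, and extraembryonic endoderm markers at 155, 151 and 1150 against 5.62. For trophoblast and mesenchyme, replicates 1 and 2 thus lay far nearer to undifferentiated cells than replicate 3 did. The part of such cells was not tested.

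The 8 colony lines were compared with the 3 GFP-positive libraries. Of 33 entries tested, 21 were called, 5 higher and 16 lower in the lines, which is 63.6% of them, against 57.9% of all 12225 entries (27.6% higher, 30.3% lower). Over both directions together, the share was thus near the background. The calls leaned more to lower in the lines than those over all entries, which was not tested. Without replicate 3, the number called was 18 of 33 (5 higher, 13 lower), against 57.4% (27.7% higher, 29.7% lower). Of the paternally expressed entries 5 were higher and 8 lower of 19, and of the maternally expressed none was higher and 5 were lower of 11. Median log2 fold changes were -0.48, -0.18 and, over all entries, -0.03. The groups differ in medium (Lif+2i against AICAR in differentiation medium) as well as in passage, and these cannot be told apart. All 8 extraembryonic endoderm markers tested were lower in the lines (median log2 -5.14), as were 3 of 6 mesenchyme markers (median -1.38). The part of such cells was not tested.

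Plagl1 and Ddc were the 2 genes most strongly higher in the lines. Plagl1 was at 41.5 to 84.5 CPM (median 71.6) in the 8 lines, above all 3 GFP-positive libraries (log2 3.52, SE 0.47, edgeR adjusted p = 2.7e-05; 4.79, SE 0.34, without replicate 3). Ddc was at 13.9 to 22.4 CPM (median 19.3) in the lines against 3.42 to 5.81 (log2 1.87, SE 0.19, adjusted p = 2.52e-06). Impact was at 131 to 187 CPM (median 171) against 92.4, 94.8 and 103, and Zrsr1 at 30.7 to 51.9 (median 37.8) against 24.9, 28.4 and 22.9, again without overlap. Gab1 rose less (299 to 445 CPM, median 369, against 244 to 317, with overlap; log2 0.36, SE 0.12, adjusted p = 0.0196), and its call was lost without replicate 3 (adjusted p = 0.0845). Sfmbt2 took its place there, with log2 1.07 (adjusted p = 0.0085), since its level in replicate 3 (21.6 CPM) was above those in replicates 1 and 2 (3.43 and 11.2).

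Magel2 was among the genes that fell most. It was at 0 to 1.04 CPM (median 0.226) in the lines, on 0 to 6 reads a line, and at 5.89, 10.4 and 6.28 CPM in GFP-positive cells (log2 -4.59, SE 0.43, edgeR adjusted p = 1.09e-06). Ndn, its neighbour in the Prader-Willi region and a growth suppressor of neurons, was at 2.59 to 4.88 CPM (median 3.82) against 12.1, 13.6 and 13.3 (log2 -1.79, SE 0.17, adjusted p = 1.22e-06). Snrpn, in the same region, was at 57.8 to 139 CPM (median 74.5) against 105, 182 and 167, with overlap (log2 -0.81, SE 0.25, adjusted p = 0.013), and lost its call without replicate 2 (0.0805). Mkrn3, a ring-finger gene of that region, did not pass (2.12 to 4.06 against 2.91 to 4.89 CPM).

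In the Peg10 domain, Peg10 was at 72.6 to 187 CPM (median 98.1) in the lines against 268, 313 and 768 (log2 -2.01, SE 0.30, edgeR adjusted p = 6.55e-05; -1.38, SE 0.25, without replicate 3). Sgce, read from a promoter shared with it, was at 1.20 to 4.05 CPM (median 2.48) against 6.04, 9.26 and 13.1 (log2 -1.96, SE 0.32, adjusted p = 0.000137). Ppp1r9a was at 18.1 to 27.6 CPM (median 20.4) against 32.9 to 53.3 (log2 -0.98, SE 0.15, adjusted p = 6.92e-05). Calcr, the calcitonin receptor gene, was at 0 to 0.589 CPM against 1.32 to 1.86 (log2 -3.35, SE 0.59, adjusted p = 0.000263). All 4 were lower in every line than in every GFP-positive library. How many of all entries separated the groups in this way was not counted, here and for the genes above. Of all entries, 30.3% were called lower in the lines.

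Cdkn1c was at 0.692 to 3.10 CPM (median 0.90) in the lines against 3.80, 8.94 and 17.6 (log2 -2.83, SE 0.45, edgeR adjusted p = 0.000108; -2.18, SE 0.42, without replicate 3), and Nnat at 0.454 to 1.87 (median 0.98) against 4.03, 2.54 and 5.73 (log2 -1.96, SE 0.33, adjusted p = 0.000163). H19 was at 4.67 to 43.7 CPM (median 10.8) against 75.1, 48.5 and 801. No line reached the lowest GFP-positive library, although colony line 4 came close. The log2 fold change was -4.49 (SE 0.70, adjusted p = 9.87e-05) with replicate 3 and -2.17 (SE 0.48, adjusted p = 0.00144) without it. Igf2, at 0.452 to 4.82 CPM (median 1.20) against 1.12, 2.41 and 38.8, overlapped between the groups. Its call (log2 -3.21, SE 0.81, adjusted p = 0.00387) was gone without replicate 3 (log2 -0.26, SE 0.60, adjusted p = 0.727). Smaller falls, of 1.27- to 1.67-fold, were called for Inpp5f, Igf2r, Kcnq1/Kcnq1ot1 and both Gnas entries; those of Igf2r and of the entry named Gnas alone did not pass without replicate 3 (adjusted p = 0.38 and 0.49).

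The 12 tested entries that did not pass included Mest (61.8 to 144 against 90.6 to 128 CPM), Peg3 (28.3 to 97.5 against 59.4 to 159), Grb10, Peg13, Phlda2, Usp29, Ube3a, Trappc9, Tssc4, Commd1, Sfmbt2 and Mkrn3. Their log2 fold changes ran from -0.58 (Peg3) to 0.38 (Sfmbt2).

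**Figure D3:**
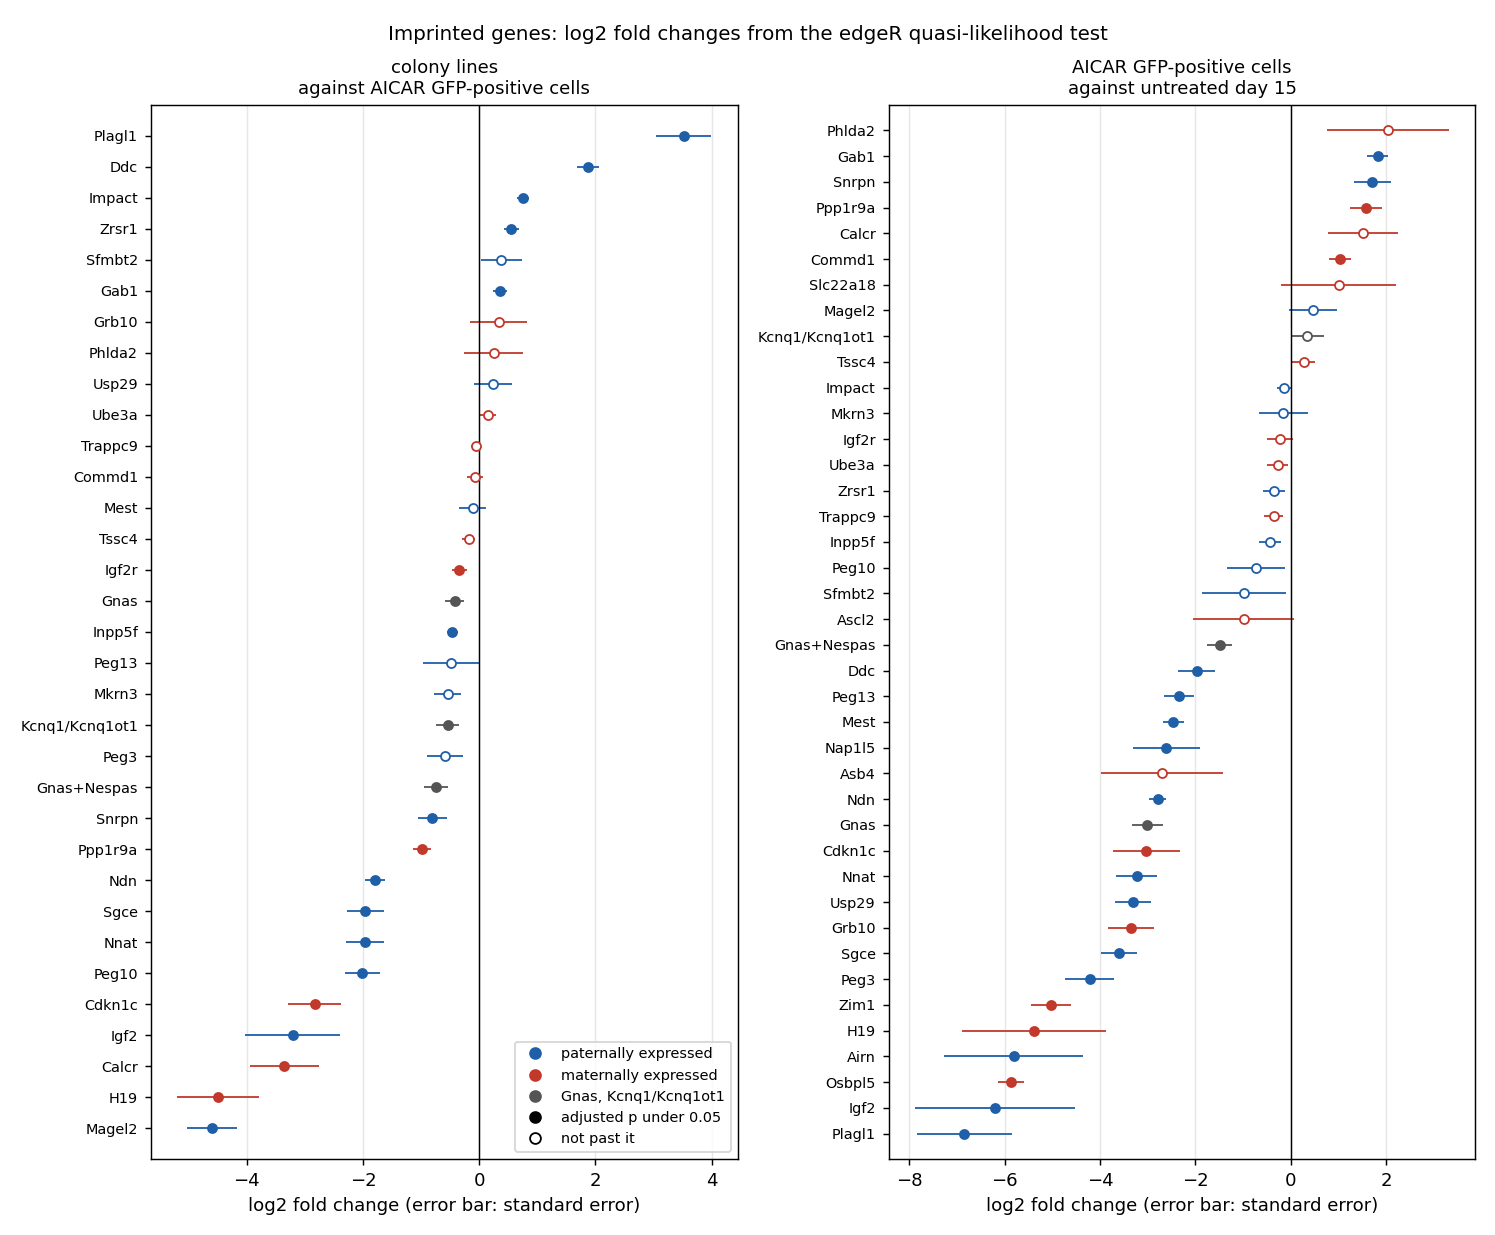
Log2 fold change with its standard error for each entry tested, colony lines against AICAR GFP-positive cells (left, 33 entries) and AICAR GFP-positive cells against untreated day 15 (right, 40 entries). Filled points passed an adjusted p of 0.05, blue stands for paternally and red for maternally expressed genes, and grey for Gnas and Kcnq1/Kcnq1ot1. Plagl1 and Ddc are the highest on the left (3.52 and 1.87), and on the right Plagl1 is the lowest (-6.85).

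The 2 sorted lines were set against the same 3 GFP-positive libraries. Of 35 entries tested, 15 were called, 4 higher and 11 lower, against 36.7% of all 12593 (17.5% higher, 19.1% lower). Without replicate 3 it was 17 of 34 (4 higher, 13 lower), against 51.8% (25.4% higher, 26.4% lower). Both comparisons share the GFP-positive libraries, so their values are given side by side only. Plagl1 was at 63.0 and 60.6 CPM (log2 3.37, SE 0.75, edgeR adjusted p = 0.0165), Ddc at 22.3 and 18.2 (log2 2.04, SE 0.26, adjusted p = 0.00329), Impact at 157 and 157 (log2 0.68, SE 0.09, adjusted p = 0.00396) and Zrsr1 at 36.0 and 39.8 (log2 0.55, SE 0.15, adjusted p = 0.0274). Lower were H19 (9.29 and 10.4 CPM), Magel2 (0.845 and 0.751), Nnat (1.01 and 0.15), Peg10 (85.7 and 69.7), Sgce (2.03 and 1.5), Cdkn1c (1.52 and 2.40), Ppp1r9a (14.9 and 17.6), Ndn (5.58 and 5.11), Osbpl5, Calcr and the Gnas entry joined to Nespas. Their log2 fold changes ran from -5.00 for H19 to -1.10 for Gnas/Nespas, with edgeR adjusted p from 0.00377 (Magel2) to 0.0436 (Cdkn1c). Without replicate 3 the log2 fold change was -2.66 (SE 0.23) for H19, -1.92 (SE 0.12) for Peg10, -1.70 (SE 0.50) for Cdkn1c and 4.71 (SE 0.18) for Plagl1, all still called. Of 8 extraembryonic endoderm markers tested, 5 were lower in the sorted lines (median log2 -6.15), and of 4 mesenchyme markers 2 (median -1.53); their part was not tested. Snrpn, at 134 and 119 CPM, did not pass (adjusted p = 0.382). Leaving out either sorted line leaves 1 library on that side. Nearly all calls by edgeR were then lost, among the listed genes and over all entries alike.

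Between the colony and the sorted lines, none of 30 entries was called by edgeR, against 0% of all 11871. DESeq2 called none of 40, against 0 of all 17596. The single entry with an unadjusted p under 0.05 was Ppp1r9a. Between colony lines and the undifferentiated library (8 against 1), none of 33 was called by edgeR, against 0.0325% of all 12312 (0.00812% higher, 0.0244% lower). DESeq2 called none of 40, against 388 of all 17512. By edgeR, 6 entries had an unadjusted p under 0.05. In all 6 of these every line lay on one side of the undifferentiated library. Since they were picked by p, this adds no weight. Other entries, not among the 6, did so too. All lines were below the undifferentiated library for Sgce, Usp29 and Ndn, for example. They were above it for Gab1, Igf2 and the Gnas entry joined to Nespas, for example. The share over all entries was not counted. The log2 fold changes were -0.61 (SE 0.21) for Ddc, 0.46 (SE 0.15) for Impact, 0.64 (SE 0.22) for Ube3a and 0.72 (SE 0.24) for Ppp1r9a. They were -1.88 (SE 0.61) for Slc22a18 and -0.54 (SE 0.18) for the Gnas entry. The adjusted p of these 6 were 0.162 to 0.173, and a miss with a single library on one side does not show that the levels were equal.

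The colony lines differed from each other in these genes by more than most genes did. Of 21 entries with a mean of at least 5 CPM, 2 (9.52%) differed at least 4-fold between the highest and the lowest line, against 0.831% of 9510 entries. These 2 were H19 and Grb10. The median coefficient of variation over the 8 lines was 16.5% for the 21 entries and 11.3% over all. The median chi-square per degree of freedom, where 1 is counting noise, was 16.7 against 2.83. With a list of 21 this is a description and not a test, and the chi-square grows with the read count.

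H19 was at 9.90, 13.4, 43.7, 11.7, 7.11, 15.6, 6.15 and 4.67 CPM in lines 1, 3, 4, 5, 6, 7, 9 and 10. Line 4 stood above all others, and without it H19 no longer reached 4-fold, so that 1 entry remained. Igf2 was also highest in line 4 (4.82 CPM, 31 reads), against 0.452 to 1.77 in the other lines, on 3 to 12 reads. Line 4 had mesenchyme markers at 135 CPM, against 8.92 to 26.3 in the other lines, and all 10 of its markers had reads. Smooth muscle markers were at 94.0 CPM in line 4 and 155 in line 5, against 5.45 to 21.4 in the others. The part of such cells was not tested.

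Grb10 was at 18.5 CPM in line 7 and 12.2 in line 5, against 2.96 to 7.38 in the other 6 lines and 12.8 in undifferentiated cells. It is maternally expressed in most tissues and paternally in neurons. Ddc, beside it, was at 13.9 to 22.4 CPM and at 20.9 and 15.9 in these 2 lines, so it did not follow Grb10.

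Mest split the lines into a higher and a lower set. It was at 144, 141 and 144 CPM in lines 3, 6 and 10, and at 83.7, 61.8, 89.4, 88.6 and 79.8 in lines 1, 4, 5, 7 and 9, with no line between 89.4 and 141. The sorted lines lay between the sets (138 and 117), and undifferentiated cells in the lower (75.9). Snrpn was at 139 and 134 CPM in lines 3 and 10 and at 57.8 to 98.1 in the other 6. The sorted lines (134 and 119) and undifferentiated cells (124) were near the higher value. Line 6, high for Mest, was at 77.3 for Snrpn, so that the 2 genes did not divide the lines in the same way. Mesenchyme markers were at 8.92 to 15.2 CPM in the 3 lines high for Mest and at 9.84 to 135 in the other 5, of which lines 7 and 9 (10.6 and 9.84) lay in the range of the former.

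Peg13, a noncoding RNA inside an intron of Trappc9, was at 0.908 and 0.769 CPM in lines 6 and 9, on 6 and 5 reads. The other 6 lines had 3.83 to 8.72 CPM, on 26 to 59 reads, and undifferentiated cells 3.04. Its mean of 4.94 CPM lies just under the minimum of 5, so it is not among the 21 entries, although its highest line was 11.3 times its lowest. Trappc9, a vesicle trafficking gene, was at 28.2 to 36.5 CPM in all 8 lines, with 36.5 in line 6 and 31.2 in line 9. The low level of Peg13 in 2 lines was therefore not seen in its host gene.

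Peg3 ran from 28.3 CPM in line 9 to 97.5 in line 7, with 87.5 in line 5 and 89.0 in line 1 and 36.4 in undifferentiated cells. Peg10 was highest in lines 4 and 5 (187 and 162 CPM) and at 72.6 to 121 in the others. The entry of the potassium channel gene Kcnq1 and its long noncoding antisense RNA Kcnq1ot1 ran from 25.0 CPM in line 1 to 51.8 in line 9. Phlda2, in the same domain, ran from 1.71 in line 4 to 8.57 in line 1. At the other end Trappc9, Inpp5f and Impact had coefficients of variation of 7.46%, 8.35% and 10.6%. Line 9 was the lowest of the 8 for Peg3, Peg10, Plagl1, Impact, Ube3a and Peg13 and the highest for Kcnq1/Kcnq1ot1, Ddc and Commd1. It is also the line with the lowest sum over the list (1460 CPM).

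**Figure D4:**
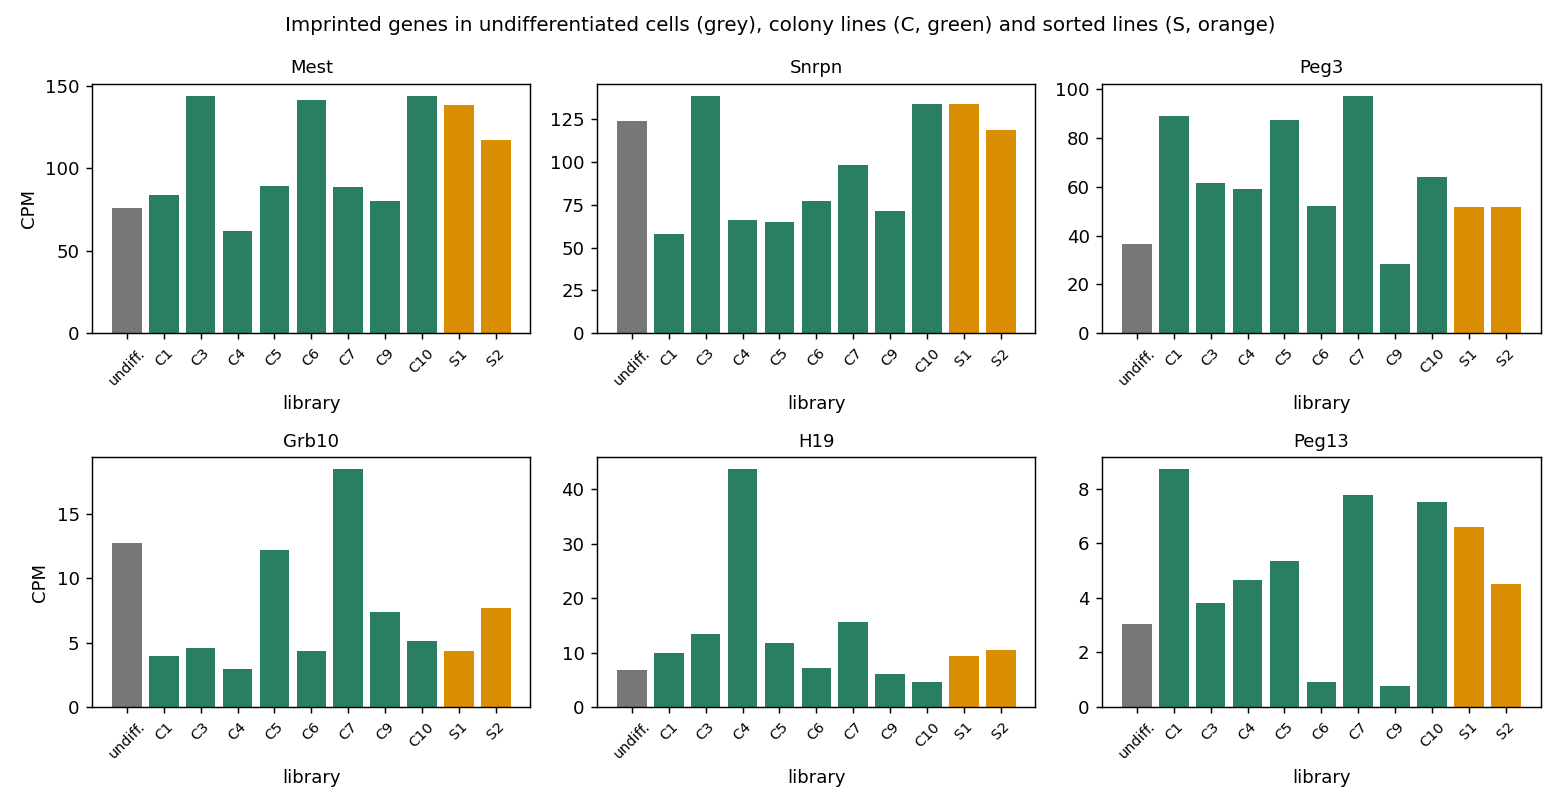
CPM of 6 imprinted genes in undifferentiated cells (grey), 8 colony lines (C, green) and 2 sorted lines (S, orange), 1 bar a library, each axis starting at 0. Mest is at 141 to 144 CPM in lines 3, 6 and 10 and at most 89.4 in the other colony lines, Peg13 is under 1 CPM in lines 6 and 9, and H19 is highest in line 4.

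Whether neighbours in 1 imprinted domain varied together over the 8 colony lines was examined for 4 pairs, after log2(CPM + 0.5). H19 and Igf2 gave Pearson r = 0.82 (exact permutation p = 0.0221, 0.0885 adjusted over the 4 pairs) and Spearman rho = 0.52 (exact permutation p = 0.197, adjusted 0.393). Without lines 4 and 10, the 2 farthest from the median of H19, r was 0.01, so the relation rests on those lines. Peg10 and Sgce gave r = 0.68 (exact permutation p = 0.0643, adjusted 0.129) and rho = 0.71 (p = 0.0576, adjusted 0.23, exact), and r = 0.11 without lines 4 and 5. Peg3 and Usp29 (r = -0.09, rho = 0.07) and Cdkn1c and Phlda2 (r = 0.08, rho = 0.19) showed no relation past the threshold (exact permutation p = 0.809 and 0.837 for r, both 0.837 adjusted, and 0.882 and 0.665 for rho, both 0.882 adjusted). Their r without the 2 farthest lines was 0.23 and -0.57. Ndn with Magel2 and Igf2r with Airn were left out because Magel2 and Airn had a mean under 1 CPM.

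Genes of imprint upkeep and DNA methylation were given by a list of 17: the zinc-finger proteins Zfp57 and Zfp445, their partners Trim28 and Setdb1, the DNA methyltransferases and their cofactors, and other chromatin factors. It also holds genes of de novo methylation (Dnmt3a, Dnmt3b, Dnmt3l) and of methylcytosine oxidation (Tet1, Tet2). Its sum is therefore no measure of how well imprints are kept. The summed level of the 17 was 6570 CPM in undifferentiated cells, 7930 and 7700 at day 2, 1980 at day 15, 6210 to 7650 in GFP-positive cells and 7340 to 8750 in the lines. Between GFP-positive cells and untreated day 15, 14 of 17 were higher and none lower, against 23.1% and 23.2% of all entries, with Dnmt3l, the cofactor of de novo methylation (log2 5.08, SE 0.98, edgeR adjusted p = 0.015), and Tet1, which oxidises methylcytosine (log2 4.72, SE 0.38, adjusted p = 0.00284), the largest. Between colony lines and GFP-positive cells, 7 of 16 were higher and 4 lower, against 27.6% higher and 30.3% lower of all entries. Dnmt3l (log2 2.01, SE 0.26, adjusted p = 2.27e-05), the Polycomb subunit gene Eed (1.20, SE 0.08, 9.29e-08) and Uhrf1, which guides maintenance methylation (1.01, SE 0.07, 1.48e-07), were among the higher. The de novo methyltransferase Dnmt3a (-2.08, SE 0.12, 2.09e-08), Tet1 (-1.10, SE 0.18, 0.000138), Dnmt3b (-0.67, SE 0.14, 0.00105) and Zfp445 (-0.51, SE 0.15, 0.00786) were the 4 lower. Zfp57 was at 557 CPM in undifferentiated cells, at 78.1 and 64.4 at day 2, at 109 on day 15, at 445 to 750 in GFP-positive cells and at 568 to 809 in the colony lines.

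The 6 entries that stayed under 5 CPM in every library were Nap1l5, Mkrn3, Slc22a18, Ascl2, Asb4 and Calcr. Ascl2, a transcription factor of the trophoblast, was at 0.224 to 2.08 CPM throughout. Asb4 had 31 reads at day 15 and at most 14 in any other library. Mkrn3 reached 4.89 CPM in AICAR GFP-positive replicate 2, Slc22a18 2.02 in the same library, and Calcr 4.54 at day 2. Nap1l5 was highest at day 15 (2.81 CPM).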

How the data were processed

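Read counts per gene entry were produced by the authors with rpkmforgenes from uniquely mapping reads and RefSeq annotation, per the file headers. The RPKM values were made by the authors from the same reads with 3' untranslated regions left out, per the file headers. Reads were aligned to mm9 with TopHat2 2.0.14 and Bowtie2 2.2.5 after CASAVA 1.8.2 and Trimmomatic 0.3.3, per the submitters' processing notes. The libraries were made with a stranded mRNA kit, per the labels' protocols; whether the counting used strand is not given in the sources used here.

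The deposited counts of all 22756 entries were tested with edgeR 4.0.16 (R 4.3.3): TMM scaling, minimum count 10 and total 15, quasi-likelihood test, Benjamini-Hochberg adjustment over all entries tested, threshold 0.05. Only the groups compared entered a fit. Fits were tested on simulated data. Single libraries were compared by log2 ratios with a prior count of 2, among entries with at least 50 reads, with no test. Pairs of genes over colony lines were tested by exact permutation. A group's mean in the fits differs slightly from the CPM printed, which are scaled over all 19 libraries. DESeq2 1.42.0, other scaling and filters, a fit over all libraries and leaving out libraries were the alternatives. Statistics are given for up to 12 called genes a comparison, by size of log2 fold change with at least 2 CPM in the higher group. Other genes named with statistics (such as Calcr, Gab1, Snrpn and Commd1) and the genes set out among the colony lines were chosen after their values were seen. The genes, lists and tests were chosen with earlier results of these data known.

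No label states that replicates came from separate cultures; the p-values then reflect the spread among these libraries alone, which may be technical. Each library held between 5771671 and 14233421 reads in genes, so entries near 1 CPM rest on few reads. The same replicate numbers of sorted lines and GFP-positive libraries share only a number: their deviations from the group means correlated at 0.034 over 10220 genes.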

Additional observations from a re-analysis of the deposited data

Results flagged for a closer look

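In a search for single libraries far from their group, 30 imprinted entries with a mean of at least 1 CPM were examined in the 8 colony lines, at either end. One gene stood out: Zrsr1 in colony line 7, at 51.9 CPM, where the next highest line had 39.1. The gap was 0.539 of the whole range on the log scale, just above the critical value of Dixon's test for 8 values. Chance flags about 1 in 20 groups, so 1 of 30 is no more than chance gives. Commd1, whose intron holds Zrsr1, was lowest in the same line (36.7 CPM, against 46.8 to 62.7 in the others).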

How the results depend on the processing

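The number of imprinted genes called in colony lines against AICAR GFP-positive cells (21, against 7075 of all 12225 entries) stayed between 18 and 24 in all alternatives. The calls over all entries moved as well. DESeq2 gave 21 (7713 of 18573), no filter 24 (8112 of 18697), and leaving out GFP-positive replicate 2 gave 18 (6431 of 12396). For sorted lines against GFP-positive cells (15 called) leaving out 1 library gave 0 to 17 (321 to 6516 of all), the GFP-positive library of the first project alone gave 28 (7868 of 12710), and the replicate block on numbers 1 and 2, with replicate 3 left out, gave 19, against 17 for the same libraries without the block; the numbers are not known to pair the samples. For GFP-positive against undifferentiated cells (1 called), DESeq2 gave 5 (2107 of all 18251 entries), no filter 3 (1039 of 18251), a fit over all 19 libraries 11 (4304 of 15041), and leaving out 1 library 0 to 13 (0 to 4156 of all). Against untreated day 15 (23 called), leaving out 1 library gave 13 to 28 (2873 to 9411 of all). Against the GFP-negative library (0 called), DESeq2 gave 2 (1204 of 18516), a fit over all libraries 5 (3548 of 15041), and leaving out 1 library 0 to 16 (0 to 3955 of all). The count of genes at least 4-fold apart between colony lines (2) was 1 with a minimum of 10 CPM, 1 without lines 4 and 5 together (chosen after seeing the data), and 1 to 3 with 1 line left out. The pairs Peg3 with Usp29 and Cdkn1c with Phlda2 changed sign, to 0.23 and -0.57, without the 2 farthest lines. Counts of single-library comparisons kept within 1.5 times under all settings. Among alternative values of the genes ranked for full statistics, 2 lost their call and 201 kept it in colony lines against GFP-positive cells, 26 and 106 in sorted lines against them, 6 and 78 against day 15, and 2 and 5 against undifferentiated cells. Peg10 with Sgce reached p = 0.0482 (r = 0.72, exact permutation test) with a pseudocount of 2. Single libraries on one side, and GFP-positive replicates 1 and 2 from another project than all other libraries, limit the tests. Within the first project alone, GFP-positive cells against the single libraries could not be tested.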
